A study of Mus musculus with 4 samples.

Results

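CTCF binding was described around 9 immediate early response genes of the mouse: Fos, Fosb, Jun, Junb, Egr1, Atf3, Gadd45b, Myc and Ier2. A region was assigned to a gene when its summit, the position of strongest signal, lay within 50 kb of the gene's span on the mm10 build. This rule found 48 of the 20043 regions called in the control library and 42 of the 16128 regions called in the library labelled CTCF knockout. Chromatin bound by CTCF was pulled down and sequenced (ChIP-seq) from left-ventricular cardiac myocytes of C57BL/6 mice, once in control hearts and once in hearts labelled CTCF_knockout. Each library came from cells pooled from 3 hearts, and the same anti-CTCF antibody was used for both. The sources used here do not give the age of the mice, the promoter that drove the deletion or the share of myocytes that had lost the protein. Neither list measures Ctcf transcript or protein, so the second library is called by its label. With 1 library per genotype there was no replicate and no test between genotypes, and every interval below covers counting error only.

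Immediate early genes are transcribed within minutes of a stimulus, without the need for new protein synthesis, from promoters that are kept ready for rapid activation. Fos, Fosb, Jun and Junb encode subunits of the dimeric transcription factor AP-1, Egr1 a zinc-finger factor, Atf3 a stress-induced leucine zipper factor and Myc a growth-promoting factor. In the heart this group is known for its rapid rise after stretch, pressure load and adrenergic stimulation. CTCF is a zinc-finger protein that anchors chromatin loops together with cohesin and can bring enhancers to promoters or keep them apart.

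Sequence under the regions is shown where a promoter window, taken as 250 bases before to 50 bases after a RefSeq transcription start (GRCm38.p6), overlapped one of the control regions. Of the 9 genes 6 had such a window, and none of these 6 was overlapped by a region of either list. Of all 32851 promoter windows only 1251 held a control summit, so a window without one is the usual case. The windows that were overlapped belong to neighbouring genes. That of Rtbdn, near Junb, was overlapped by a labelled-knockout region and no control region, and is not printed. The promoter of the non-coding gene Gm26802 lies under the strongest region of all 48, beside Fosb, and those of Mast1 and Hook2 lie under regions beside Junb. Capitals mark the 21 bases centred on the control summit in the first 3 sequences, and each sequence is read 5′ to 3′ on the strand of its gene.
Gm26802 (chr7:19300744-19301043, minus strand): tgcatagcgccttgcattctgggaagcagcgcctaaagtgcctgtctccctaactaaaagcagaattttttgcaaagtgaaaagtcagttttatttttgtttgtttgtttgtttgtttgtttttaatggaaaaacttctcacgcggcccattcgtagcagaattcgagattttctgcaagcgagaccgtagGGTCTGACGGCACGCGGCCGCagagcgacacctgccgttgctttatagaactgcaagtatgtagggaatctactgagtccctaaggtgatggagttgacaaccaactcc
Mast1 (chr8:84937304-84937603, minus strand): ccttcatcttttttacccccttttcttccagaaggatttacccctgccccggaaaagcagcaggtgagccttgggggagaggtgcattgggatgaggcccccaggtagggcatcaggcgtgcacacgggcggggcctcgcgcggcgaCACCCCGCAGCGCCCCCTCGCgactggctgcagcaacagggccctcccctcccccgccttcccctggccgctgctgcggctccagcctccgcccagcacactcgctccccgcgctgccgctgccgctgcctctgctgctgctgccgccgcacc
Hook2 (chr8:84990373-84990672, plus strand): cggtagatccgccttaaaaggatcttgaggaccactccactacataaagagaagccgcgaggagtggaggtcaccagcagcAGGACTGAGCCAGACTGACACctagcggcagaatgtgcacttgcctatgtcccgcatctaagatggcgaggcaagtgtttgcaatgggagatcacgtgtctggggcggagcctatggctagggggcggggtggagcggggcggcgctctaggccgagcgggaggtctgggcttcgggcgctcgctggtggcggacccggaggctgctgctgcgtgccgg
Fos (chr12:85473640-85473939, plus strand): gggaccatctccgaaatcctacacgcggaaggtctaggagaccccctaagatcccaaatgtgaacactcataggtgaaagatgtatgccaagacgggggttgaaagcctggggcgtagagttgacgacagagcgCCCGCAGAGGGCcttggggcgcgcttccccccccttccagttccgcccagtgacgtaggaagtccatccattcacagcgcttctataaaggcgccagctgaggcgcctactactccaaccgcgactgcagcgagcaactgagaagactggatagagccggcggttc
Fosb (chr7:19309996-19310295, minus strand): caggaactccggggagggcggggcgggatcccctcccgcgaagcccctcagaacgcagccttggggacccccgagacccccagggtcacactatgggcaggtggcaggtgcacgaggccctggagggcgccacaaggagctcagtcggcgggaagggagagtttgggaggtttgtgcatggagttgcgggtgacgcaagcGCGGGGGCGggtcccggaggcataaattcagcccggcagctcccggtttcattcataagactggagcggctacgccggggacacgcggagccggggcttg
The control summit lay 49 bases before the start of Gm26802, 93 before that of Mast1 and 159 before that of Hook2. The Fos and Fosb promoters are shown because they hold the only matches found among the 6 member promoters, which the capitals mark there.

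The motifs searched on both strands were a core of the CTCF motif (CCNNNAGNNGGC), the AP-1 element TGACTCA, the cAMP response element TGACGTCA, the EGR element GCGGGGGCG and the CArG box bound by serum response factor. None of the matches given here overlaps another motif. The Fos promoter matched the core CTCF letters, starting 116 bases before the start site, and no region was called there. The Fosb promoter matched the EGR letters 50 bases before its start. The Hook2 promoter matched the CArG box 239 bases before its start. None of the windows of Gm26802, Mast1 and Hook2 held the core CTCF letters, which says only that these letters are not in these windows. Over all 32851 promoter windows of the table, 8.61% held the core CTCF letters. The share was 40.1% of the 1251 windows with a control summit and 7.36% of the others. The EGR letters were in 2.91% of all windows and the CArG box in 1.63%. The AP-1 letters were in 5.20% and those of the cAMP response element in 1.79%. Neither these letters nor the CArG box matched any of the 6 member promoters, which says only that no exact match lay in these windows. Near matches and sequence further from the start were not searched, and Egr1, Myc and Ier2 had no window.

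Most control regions around the 9 genes had a counterpart in the library labelled knockout. A control region is called kept when a region of the second list overlapped it by at least 1 bp, and lost when none did, which does not mean that no binding was left. Of the 48 control regions 38 were kept (79.2%, Wilson 95% interval 65.7 to 88.3), where 69.0% of the whole control list was kept. The interval covers the share of the whole list. All 7 control regions around Junb and all 7 around Gadd45b were kept. Kept were 5 of 6 around Fos, 6 of 7 around Fosb, 4 of 5 around Egr1 and 5 of 6 around Ier2. Around Atf3 2 of 4 were kept, and around Jun and around Myc 1 of 3. The intervals of single genes are wide, running for Myc and Jun from 6.15 to 79.2% and for Junb and Gadd45b from 64.6 to 100%. In the reverse direction, 38 of the 42 labelled-knockout regions overlapped a control region (90.5%, interval 77.9 to 96.2), beside 85.8% of that whole list.

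**Figure D1:**
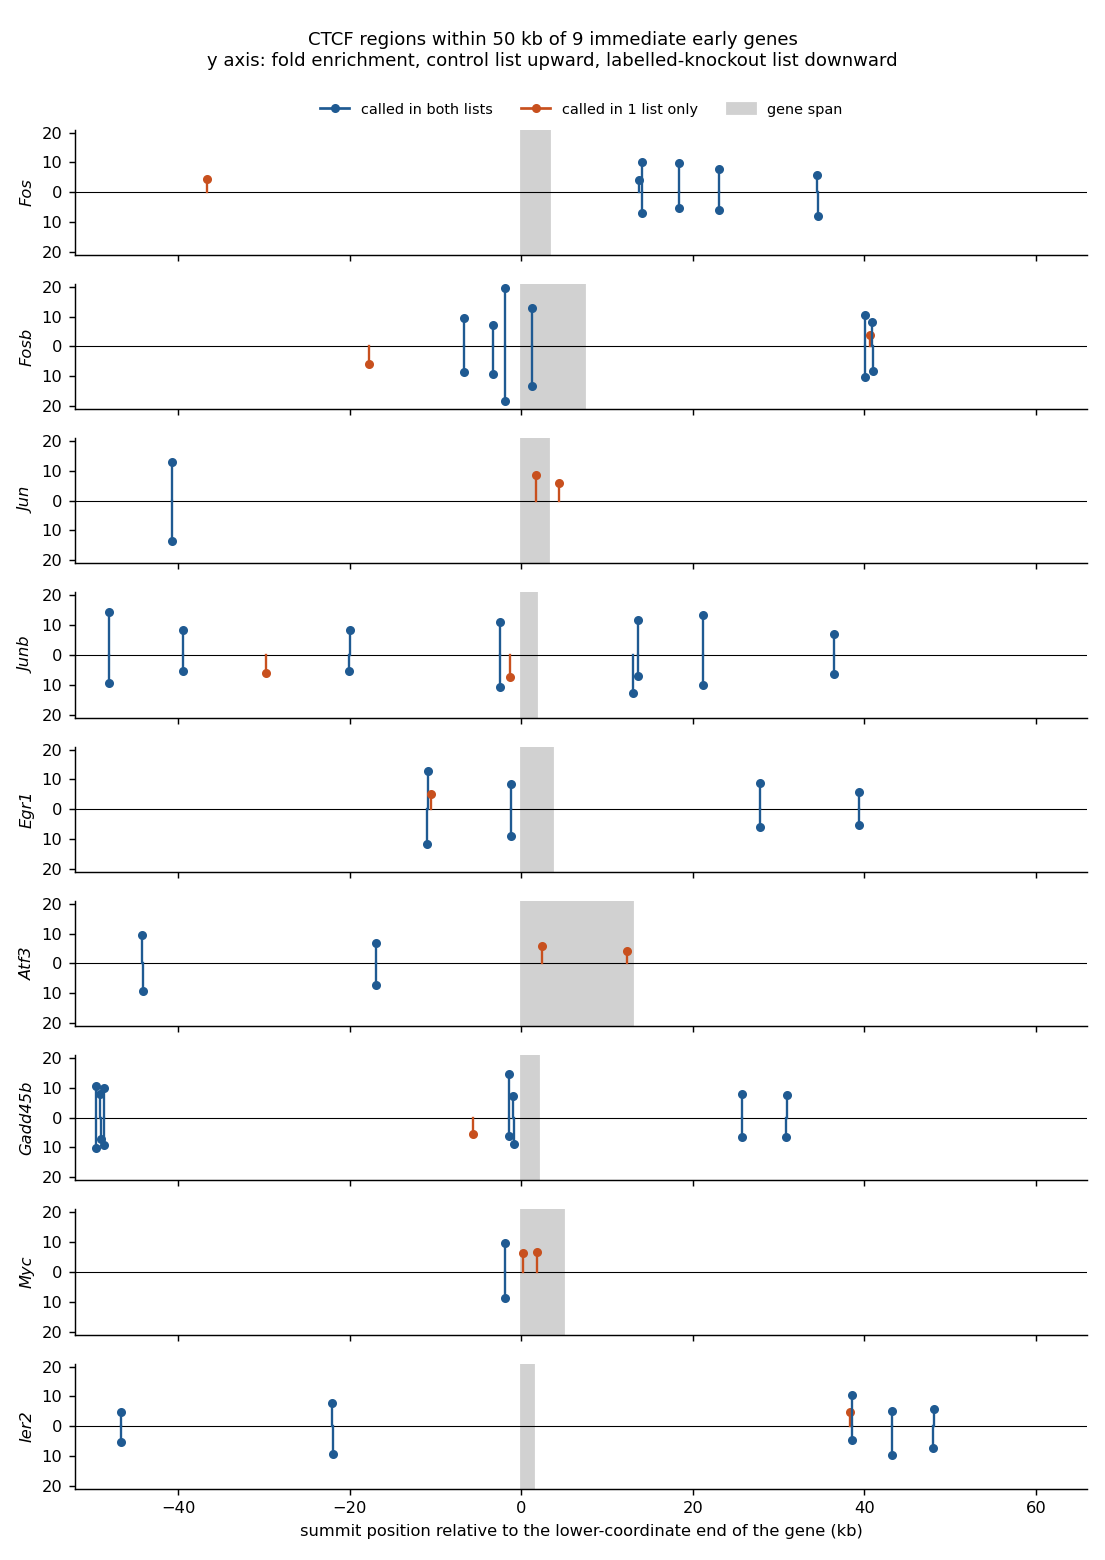
Position and fold enrichment (the authors' ratio over the local background, control upward and labelled knockout downward) of each region within 50 kb of the 9 genes, with x in kb from the lower-coordinate end of the gene and the gene span in grey. Blue regions were called in both lists and orange regions in 1 list; the orange control regions inside the gene spans are those of Jun, Atf3 and Myc.

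Strength went with being kept. The fold enrichment of a region is the ratio of its reads to the local background of its own library, as the authors' peak caller gave it, and it is ranked here only within its own list. The 38 kept control regions had a median fold enrichment of 8.58 (range 3.99 to 19.4) and the 10 lost ones 5.41 (range 3.89 to 8.47). In recovered reads at the summit the kept regions had a median of 19 (7 to 39) and the lost ones 12 (7 to 16). The whole control list was cut at its quartiles into 4 bins of strength. In the weakest bin, up to a fold enrichment of 5.48, 3 of 8 regions near the 9 genes were kept, beside 37.3% of all regions of that bin. In the next bins 5 of 9, 13 of 14 and 17 of 17 were kept, beside 60.8%, 84.1% and 97.1% of all regions. The Wilson interval of each of these 4 shares covers the share of all control regions of the same bin. The regions near the 9 genes were stronger than the list as a whole, with a median of 8.06 against 6.98, and 17 of the 48 fell in its strongest bin.

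**Figure D2:**
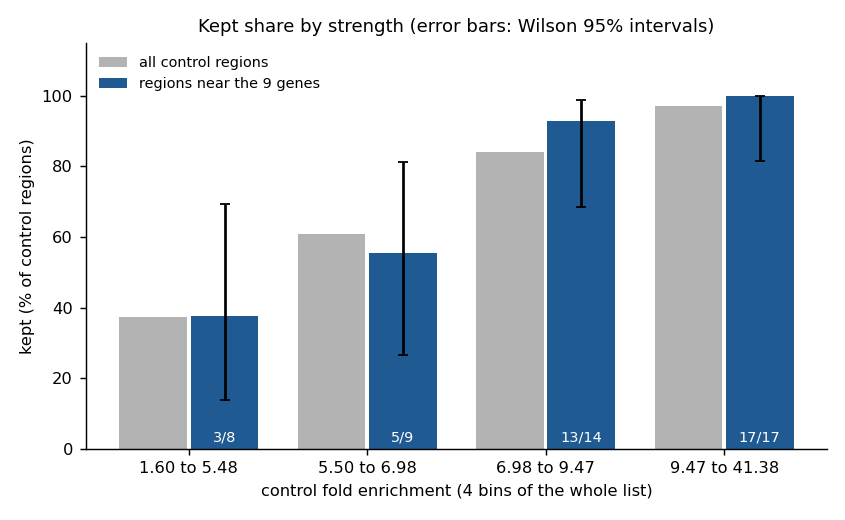
Share of control regions kept (%), by bin of control fold enrichment (cut at the quartiles of the whole control list), for all control regions (grey) and those near the 9 genes (blue, with Wilson 95% intervals and counts in the bars). The blue bars rise from 3 of 8 to 17 of 17, and each interval covers the grey bar beside it.

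Fos (chromosome 12, 85473890 to 85477274), the best-known subunit of AP-1, had its regions on the downstream side. In the control list 5 regions lay 10.4, 10.6, 15.0, 19.7 and 31.1 kb beyond the end of the gene, with fold enrichments of 3.99, 10.2, 9.81, 7.74 and 5.61. All 5 were kept, the first and second by the same region of the other list. The 4 regions of the library labelled knockout had fold enrichments of 6.97, 5.28, 5.94 and 8.10 in the same order. The only region on the upstream side, 36.6 kb before the gene (85437249 to 85437384), had a fold enrichment of 4.30 from 9 reads and was lost. The gene and the 10 kb on either side thus held no region in either list. None of the 6 control regions lay within another annotated gene.

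Fosb (chromosome 7, 19302696 to 19310118), which encodes a second Fos-family subunit, had the strongest region of the set. It lay 1.85 kb beyond the 3′ end of the gene (19300723 to 19301081) at the start of Gm26802, whose promoter is printed above. Control fold enrichment was 19.4 here, at percentile 99.3 of the control list, and the labelled-knockout list gave 18.2. It rested on 39 reads in the control (exact Poisson 95% interval 27.7 to 53.3) and 33 reads in the library labelled knockout (22.7 to 46.3). These intervals overlap, but reads are not scaled to library depth here or below, so the overlap does not show equal binding. A region within Fosb itself (19303666 to 19304060) had fold enrichments of 12.7 (control) and 13.2 (labelled knockout). It was the only region inside any of the 9 genes that was called in the library labelled knockout. Regions 3.32 and 6.66 kb beyond the 3′ end, the latter in the reticulon gene Rtn2, had control fold enrichments of 7.03 and 9.65 and were kept. On the upstream side 3 control regions lay within 1 kb of each other near Ercc1, a DNA repair gene. The outer 2 of these, at 10.5 and 8.14, were kept, and the weak one between them (3.89, 7 reads) was lost.

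Jun (chromosome 4, 95049036 to 95052222), the gene of the central AP-1 partner of Fos, had few regions. A region 40.7 kb beyond its 3′ end (95008258 to 95008446), within the non-coding gene Gm12694, had fold enrichments of 13.0 (control) and 13.5 (labelled knockout). Both of the regions close to the promoter were lost. One lay inside the gene, 1.50 kb after the start site (95050560 to 95050921), with a fold enrichment of 8.47 from 16 reads, the strongest lost region of the set. The other lay 1.17 kb before the start (95053310 to 95053490), within the antisense non-coding gene Junos, at 5.90 from 14 reads. The nearest kept region to either was the one 40.7 kb beyond the gene.

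Junb (chromosome 8, 84976909 to 84978748), which encodes a Jun-family subunit that can oppose Jun, lay among many genes and many regions. All 7 control regions had summits within other protein-coding gene spans, including those 93 bases before the Mast1 start and 159 before the Hook2 start. The strongest, within the kinase gene Mast1 48.0 kb away (84928648 to 84929047), had fold enrichments of 14.5 and 9.32, from 28 reads (18.6 to 40.5) and 23 reads (14.6 to 34.5). The local background there was 1.01 reads in the control and 1.58 in the other library. The closest, 2.46 kb beyond the 3′ end in the peroxiredoxin gene Prdx2 (84974322 to 84974644), had 11.0 (control) and 10.8 (labelled knockout). Regions in the cargo adaptor gene Hook2, at 11.7 and 19.3 kb on the upstream side, had control fold enrichments of 11.7 and 13.4. The remaining 3, at the start of Mast1 and in Rnaseh2a and Best2, had 8.47, 8.47 and 6.98. The library labelled knockout held 10 regions here, because the wide Hook2 region (748 bp) matched 2 separate regions and 2 further regions overlapped none of the control list.

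Egr1 (chromosome 18, 34861207 to 34864956) had 5 control regions. The strongest, 10.9 kb on the lower-coordinate side within the non-coding gene Gm41689, had fold enrichments of 13.0 and 11.6, and a weak region 0.336 kb from it (4.99, 9 reads) was lost. A wide region 1.20 kb from the gene on the same side (34859848 to 34860426, 579 bp) had 8.52 (control) and 8.95 (labelled knockout). On the opposite side 2 regions, at 24.1 and 35.6 kb near the translation termination gene Etf1, had control fold enrichments of 8.63 and 5.78 and were kept.

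Atf3 (chromosome 1, 191170296 to 191183333) had 4 control regions, kept outside the gene and lost inside it. Those 17.0 and 44.2 kb beyond its 3′ end had control fold enrichments of 6.90 and 9.47 and values of 7.35 and 9.19 in the other list. The lost regions lay 0.711 kb and 10.6 kb after the start site. The first of these (191182510 to 191182739) had a fold enrichment of 4.15 from 13 reads, over a local background of 2.37 reads, where the lowest of the library was 1.01. The second (191172571 to 191172791) had 5.84 from 11 reads.

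Myc (chromosome 15, 61985341 to 61990361) had 3 control regions, none of them more than 1.93 kb from the gene. A CTCF site just upstream of this promoter is known in other cells as a place where distant enhancers dock. The region 1.93 kb on the lower-coordinate side (61983244 to 61983533) reached a fold enrichment of 9.62 from 20 control reads, and 8.64 from 15 reads in the library labelled knockout. It was the only Myc region that was kept. Both regions inside the gene were lost, at 61985529 to 61985667 (6.31, 13 reads) and 61987059 to 61987238 (6.82, 13 reads).

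Gadd45b (chromosome 10, 80930091 to 80932204), which encodes a stress-induced activator of mitogen-activated kinase signalling, had a pair of regions just before its start. They lay 1.41 kb (80928584 to 80928911) and 0.903 kb (80929073 to 80929315) upstream, and both were kept. Its upstream member gave a fold enrichment of 14.6 from 29 control reads (19.4 to 41.6), and 6.13 from 18 reads (10.7 to 28.4) in the library labelled knockout, over local backgrounds of 1.05 and 2.10 reads. The region nearer the start had 7.30 (control) and 8.68 (labelled knockout). The intervals of the unscaled reads of the upstream region overlap, and no direction is read from them or from the fold enrichments of separate lists. A cluster of 3 regions within the protease gene Tmprss9, 48.6 to 49.6 kb upstream, had control fold enrichments of 10.5, 7.79 and 9.97. In Gng7, a G-protein subunit gene on the downstream side, 2 regions had 7.98 and 7.48.

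Ier2 (chromosome 8, 84661331 to 84662852), a short gene for a nuclear growth-response protein, had no region closer than 22.0 kb. The nearest lay within the calcium channel gene Cacna1a (84639155 to 84639456), with 7.79 (control) and 9.19 (labelled knockout). The strongest, beside the tRNA methyltransferase gene Trmt1 (84699835 to 84700111), had 10.5 and 4.74, from 20 reads (12.2 to 30.9) and 8 reads (3.45 to 15.8). A weak region 0.291 kb from it (4.87, 9 reads) was lost. Regions in Cacna1a at 46.6 kb, in Lyl1 and in Nfix had control fold enrichments of 4.75, 5.04 and 5.93 and were kept, although they were below the control median.

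**Figure D3:**
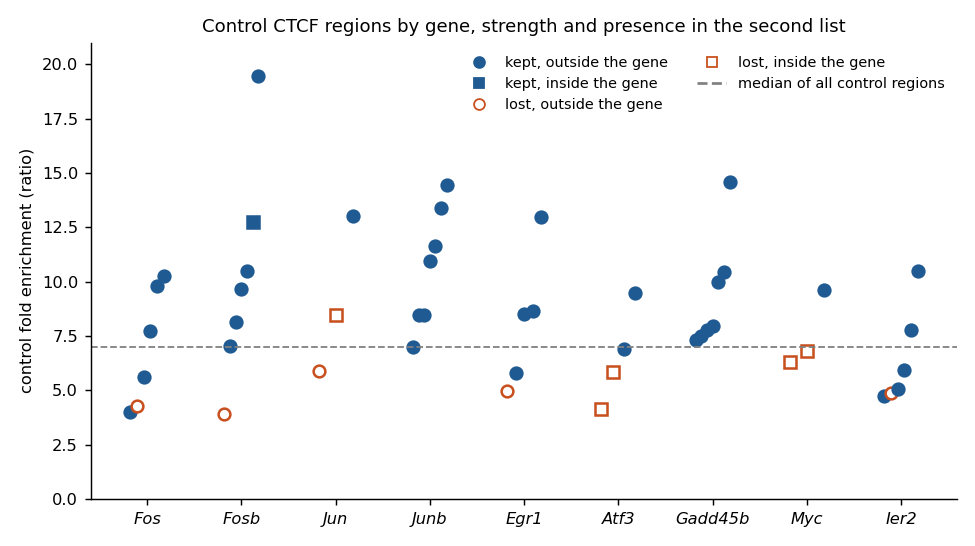
Control fold enrichment (ratio, y) of each control region by gene (x; the spread within a gene carries no meaning), filled where kept and open where lost, with squares for summits inside the gene. Of the 6 squares only that of Fosb, at 12.7, is filled, and no open symbol lies above 8.47.

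Position split the set in a way that was noticed after the values were seen. Of the 6 control regions with a summit inside a member gene 1 was kept (16.7%, interval 3.01 to 56.4), and of the 42 outside 37 were kept (88.1%, interval 75.0 to 94.8). Over the whole control list 65.1% of regions inside a protein-coding gene were kept, and 64.8% of those inside a gene no longer than Atf3, the longest of the 9 at 13038 bp. The inside regions were also weaker, with a median control fold enrichment of 6.56 against 8.31 outside, and the part of strength in this split was not tested. The 5 lost inside regions belonged to 3 genes, Jun, Atf3 and Myc, and are not independent of each other. The gene table gives no exons or introns, so these regions are placed only within the gene span.

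The 5 lost regions outside the genes were all below a fold enrichment of 6. They had 3.89 at Fosb, 4.30 at Fos, 4.87 at Ier2, 4.99 at Egr1 and 5.90 at Jun. Those at Fosb, Ier2 and Egr1 had a stronger kept region 0.321, 0.291 and 0.336 kb away. At Fos and Jun the nearest kept region was 50.4 and 45.1 kb away. The 4 regions seen in the second list alone had fold enrichments of 5.43 to 7.31, beside a median of 7.13 over that list. They lay in Rtn2 near Fosb (5.85), at the start of Rtbdn (5.94) and 1.29 kb beyond the 3′ end of Junb (7.31), and 5.57 kb before Gadd45b (5.43). Over the 38 pairs, which held 37 distinct regions of the second list, the median shift between summits was 26.5 bp. Of the 38 shifts 35 were at most 100 bp. The pairs were chosen by overlap, so close summits follow in part from that choice. The same closeness held over the whole control list, where 65.2% of regions had a second-list summit within 100 bp and 69.0% were kept.

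The 9 genes had more CTCF regions around them than most short genes. They had 3 to 7 control regions within 50 kb, where the median of 9342 protein-coding genes of at most 13038 bp was 1 (quartiles 0 and 3). This number was not adjusted for how densely genes lie around each of them. Fosb, Junb and Gadd45b, with 7 each, had more than 94.9% of these genes, and Jun and Myc, with 3 each, more than 64.8%. In the library labelled knockout the numbers ran from 1 at Jun and Myc to 10 at Junb. Regions just inside the 50 kb limit included that of Gadd45b at 49.6 kb (10.5, kept), and just outside it were those of Fosb at 51.8 kb (10.8, kept) and Gadd45b at 53.8 kb (9.47, kept).

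**Figure D4:**
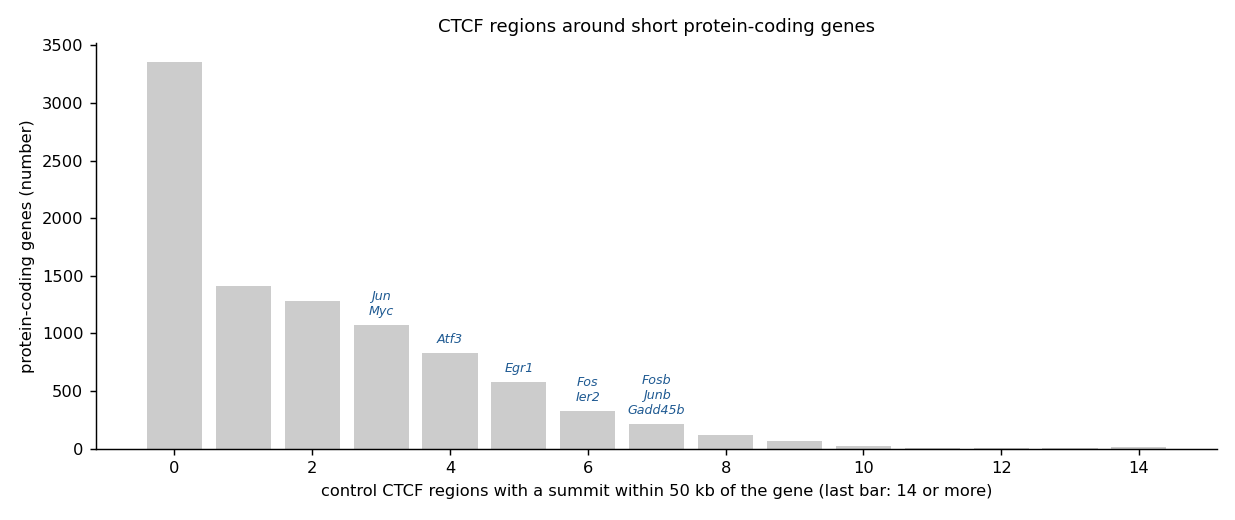
Number of protein-coding genes of at most 13038 bp (y) with a given number of control regions within 50 kb (x), with the 9 genes written above their bars. The genes stand at 3 to 7 regions, to the right of the median of 1.

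Other genes of the response were set beside them, from a list of 45 that held AP-1 and Maf partners, further Egr, Klf and Nr4a factors, feedback regulators such as the Dusp phosphatases, and upstream activators. A control region lay within 50 kb of 42 of the 45 genes, and Dusp6, Egr4 and Klf6 had none. Of 155 control regions 110 were kept (71.0%, interval 63.4 to 77.5), close to the 69.0% of the whole list. All regions were kept at 14 genes, none at 3 (Ccn1, Gadd45a and Nr4a3, with 1, 1 and 2 regions) and some at 25. Among the 27 genes with at least 3 regions, all regions were kept at 5, namely Per1, a circadian repressor gene (5 of 5), Batf and Batf3, whose products are AP-1 partners, and Klf4, a Krüppel-like factor gene (4 of 4 each), and Mcl1, an anti-apoptotic gene of the Bcl-2 family (3 of 3). Kept shares were lowest at Mrtfa, a coactivator of serum response factor (1 of 5, control fold enrichments 4.08 to 6.41), Maff, a small Maf gene (1 of 4, 5.18 to 8.11), and, tied at 1 of 3, Fosl2, a Fos-family gene (4.26 to 10.5), and Sik1, a salt-inducible kinase gene (3.99 to 9.95). The Atf3 and Batf3 windows share 2 regions, both kept. Of 27 regions inside genes of this list 12 were kept (44.4%, interval 27.6 to 62.7), beside 65.1% of all control regions inside protein-coding genes. The 27 were weaker, with a median fold enrichment of 5.69 against 6.88, and the part of strength in this difference was not tested.

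**Figure D5:**
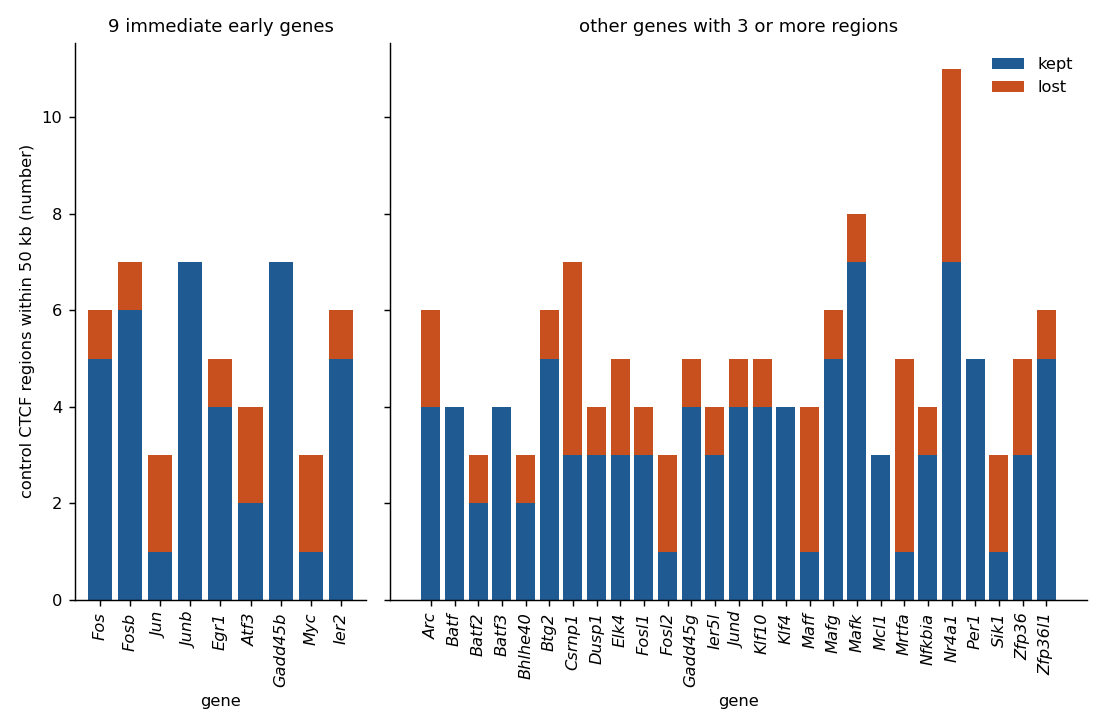
Number of control regions within 50 kb (y) that were kept (blue) or lost (orange), for the 9 genes and for the other genes of the response with 3 or more control regions. Junb and Gadd45b kept 7 of 7, while Jun and Myc kept 1 of 3.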

How the data were processed

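Of the 4 samples, the 2 CTCF ChIP libraries had a peak list and the 2 input samples were not analysed here. The submitters' processing notes name the mm10 build, MACS2, Bowtie2 2.2.6 and SAMtools 0.1.19. Each list holds the regions of its own library, per the region names. The version and threshold of the peak caller and its treatment of duplicates are not stated. Each deposited region has a fold enrichment (a ratio), a −log10 p and −log10 q, and a score, which is 10 times that deposited −log10 q, rounded down, in every region. The lists give no depth. Reads at the summit and local backgrounds were solved from fold enrichment and −log10 p, taken as (reads + 1) / (background + 1) and an upper Poisson tail. For 100% of regions a whole number of reads returned the deposited −log10 p to within 0.001. The lowest background was 1.01 in the control and 0.851 in the other library, a ratio of 0.846, which mixes read number and fragment length. The recovery and the overlaps were tested on simulated data.

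Gene spans came from the RefSeq table of GRCm38.p6 (mm10), and starts and strands from its promoter table. All 9 members and 45 listed genes matched by symbol. The members and the gene lists were chosen with earlier results of these data known. All member genes and their regions were named, with the 3 highest and 3 lowest kept shares of the longer list among genes with at least 3 control regions (ties by more control regions, then alphabet); Klf4, Mcl1 and Sik1, which tie with these, and the genes of that list with no region or no kept region were named after their values were seen. The 7 other settings tried were other windows, overlaps and thresholds and lists of equal length; the bins of strength and the split by gene span were added after the data were seen. Scripts ran in Python 3.11.15 with scipy 1.17.1, pandas 2.3.3, numpy 2.4.6 and matplotlib 3.10.9.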

Additional observations from a re-analysis of the deposited data

How the results depend on the processing

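No paired analysis was possible because there was only 1 ChIP library per genotype. The kept share of member regions, 79.2% as reported, was 60% (9 of 15) when summits had to lie within 10 kb, below the 69.0% of the whole list. With a reciprocal overlap of at least 50% it was 62.5%, where the whole list gave 59.8%. It was 72.9 to 87.5% under the other 5 settings of window, overlap, threshold and list length, where the whole list gave 65.2 to 78.5%. The interval lay just above the whole-list share with a window of 100 kb (69.2 to 87.3, beside 69.0%). The same held for a fold enrichment of at least 5 (71.6 to 93.1, beside 71.3%). Under the other settings the interval covered that share. By bin of strength the kept share of member regions was 37.5%, 55.6%, 92.9% and 100%, and inside the member genes 16.7%. This last count was 1 of 6 or 1 of 5 under all 5 settings of overlap, threshold and list length. The reciprocal overlap, the thresholds and the lists of equal length can only remove regions or pairs. Under them a lost region could not become kept, so the unchanged count adds nothing to the split. The reverse share, 90.5%, was 71.4% with reciprocal overlap. The share of the longer gene list, 71.0% as reported, was 56.1% (32 of 57) with a window of 10 kb. The interval of that share, 43.3 to 68.2, lay below the 69.0% of the whole list. With reciprocal overlap the longer gene list gave 58.7%, beside 59.8% of the whole list. With lists of equal length it gave 80.9%, beside 78.5%. Control regions numbered 15 and 74 with windows of 10 and 100 kb, and labelled-knockout regions 11 and 64, against 48 and 42. Lost regions rested on 7 to 16 reads, so at this depth a missing call does not show a missing site.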

Other observations

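Beyond the 50 kb limit the 9 genes differed widely in how far the next CTCF region lay. For Myc the next control region was 827.6 kb from the gene, with a fold enrichment of 15.1, and in the library labelled knockout the next was 696.5 kb away, with 8.21 and no overlap with the control list. For Fos it was 168.2 kb in both lists. For Jun it was 109.4 kb in the control list (5.36, lost) and 872.7 kb in the other. For Egr1 it was 84.3 kb, and this region, with a fold enrichment of 41.4, ranked first of the whole control list and was kept (36.7 in the other list). For Junb it was 73.7 kb, with fold enrichments of 21.9 (control) and 13.7 (labelled knockout).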
